A study of Arabidopsis thaliana with 16 samples.

Results

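The response of dog1-3 seeds to salt was described from 8 of the 16 libraries of this 3'RNA-seq experiment in Arabidopsis thaliana, in which each read comes from the 3' end of a transcript with a poly(A) tail. The salt-treated seeds were dog1-3 imbibed on 1/2 MS agar (a standard plant salt medium at reduced strength) with 100 mM NaCl, and the seeds they were set against were dog1-3 imbibed on 1/2 MS agar without NaCl (mock), with 4 libraries each. WT seeds (Col-0), 4 libraries with NaCl and 4 mock, served for comparison. All seeds were freshly harvested and were kept on plates at 4°C for 72 h. dog1-3 is a single line, SALK_000867, with a T-DNA insertion at DOG1, so that other differences between this line and Col-0 cannot be told apart from the loss of DOG1, and other dog1 alleles were not analysed here. The description covers all loci: of 37336 in the count tables, 12697 passed a filter on low counts and were tested.

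Imbibition lets a dry seed take up water and restart metabolism, with its stored messenger RNAs, proteins and oil at hand. Whether it goes on to germinate depends on the balance of abscisic acid (ABA), which holds the embryo in its desiccation-tolerant state, and gibberellin, which promotes cell wall loosening and growth. DOG1 is a main regulator of seed dormancy, and salt in the medium delays germination both through lowered water uptake and through sodium itself.

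Counts per library ranged from 1416354 to 2416698 in dog1-3 NaCl, from 1751431 to 2751027 in dog1-3 mock and from 1725172 to 3635844 in the WT libraries. On the first principal component of the 8 dog1-3 libraries (43.6% of the variance of log2 CPM) the NaCl libraries lay between 20.9 and 30.4 and the mock libraries between -29.7 and -20.9. NaCl replicate 4, the shallowest library, stood apart on the second component (12.7% of the variance) at 33.3, with the other 7 between -18.9 and 1.99. CPM, the counts of a locus put on a common library size, were computed from library sizes scaled by edgeR's TMM method. As a check of the tissue, the 6 seed markers (storage proteins, oleosins and EM6) summed to between 79372 and 103702 CPM in dog1-3 NaCl, against 63288 to 72512 CPM in dog1-3 mock. The 4 endosperm markers, of which 3 were tested, summed to between 22870 and 29728 CPM in NaCl, against 25877 to 34248 CPM in mock. The 4 seed coat markers, of which MUM4 alone was tested, summed to between 6.27 and 9.96 CPM in NaCl, against 4.85 to 6.82 CPM in mock. The 6 green tissue markers, of which RBCS1A and LHCA4 passed the filter, summed to 827 to 1015 CPM in NaCl and 482 to 568 CPM in mock. The part of these markers in the results was not tested, and in whole seeds fewer cells of a type and less RNA per cell cannot be told apart. Reverse transcription reactions of NaCl and mock seeds had been pooled separately, and the effect of the pool cannot be told apart from that of NaCl.

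Between NaCl and mock, genes of dog1-3 seeds were called in both directions. At an adjusted p under 0.05 (edgeR's quasi-likelihood test, Benjamini-Hochberg over all tested genes) and a change of more than 1.5-fold, 1865 genes were called (14.7% of those tested), 956 upregulated (7.53%) and 909 downregulated (7.16%). The changes were mostly moderate, with a median log2 fold change (log2FC, NaCl over mock) of 0.80 among the upregulated and -0.82 among the downregulated genes. More than 2-fold changes were seen in 247 upregulated and 266 downregulated genes, and more than 4-fold changes in 20 and 27. The 4 NaCl libraries lay wholly above or below the 4 mock libraries for 825 upregulated genes (86.3%) and 723 downregulated genes (79.5%), against 26.8% of all tested genes. Scaling by library size alone, without TMM, shifted the median log2FC of all tested genes to -0.19, against -0.02 with TMM, and called 485 genes up and 1751 down. All changes below are relative to TMM scaling. Counts of called list members are to be read against the shares over all tested genes, 7.53% up and 7.16% down. The standard error of log2FC had a median of 0.39 in the 10% of genes with the lowest CPM and of 0.087 in the 10% with the highest, and the calls leaned downwards among the lowest (39 up, 119 down) and upwards among the highest (127 up, 32 down). A gene annotated on the opposite strand overlapped 29.3% of the tested and 26.2% of the called loci. Strand use in the counting is not given in the sources used here, so reads of such pairs are uncertain. Among the genes named below this holds for the seed genes RAB18, CYSA and CYSB, for EXPA2, XTH15, MCM7 and ORC4, for AT4G17390 and AT4G16720, for PYL7, IAA13, ERF73, Lhca5, DIN10, SIP1;2, AVP1, cpHsc70-2, AO1 and UBC21, and for AUR2, AT5G49640, AT1G14453, AT1G08633, AT1G06227, PRMT1A, LAC8 and AT1G64795.

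**Figure D1:**
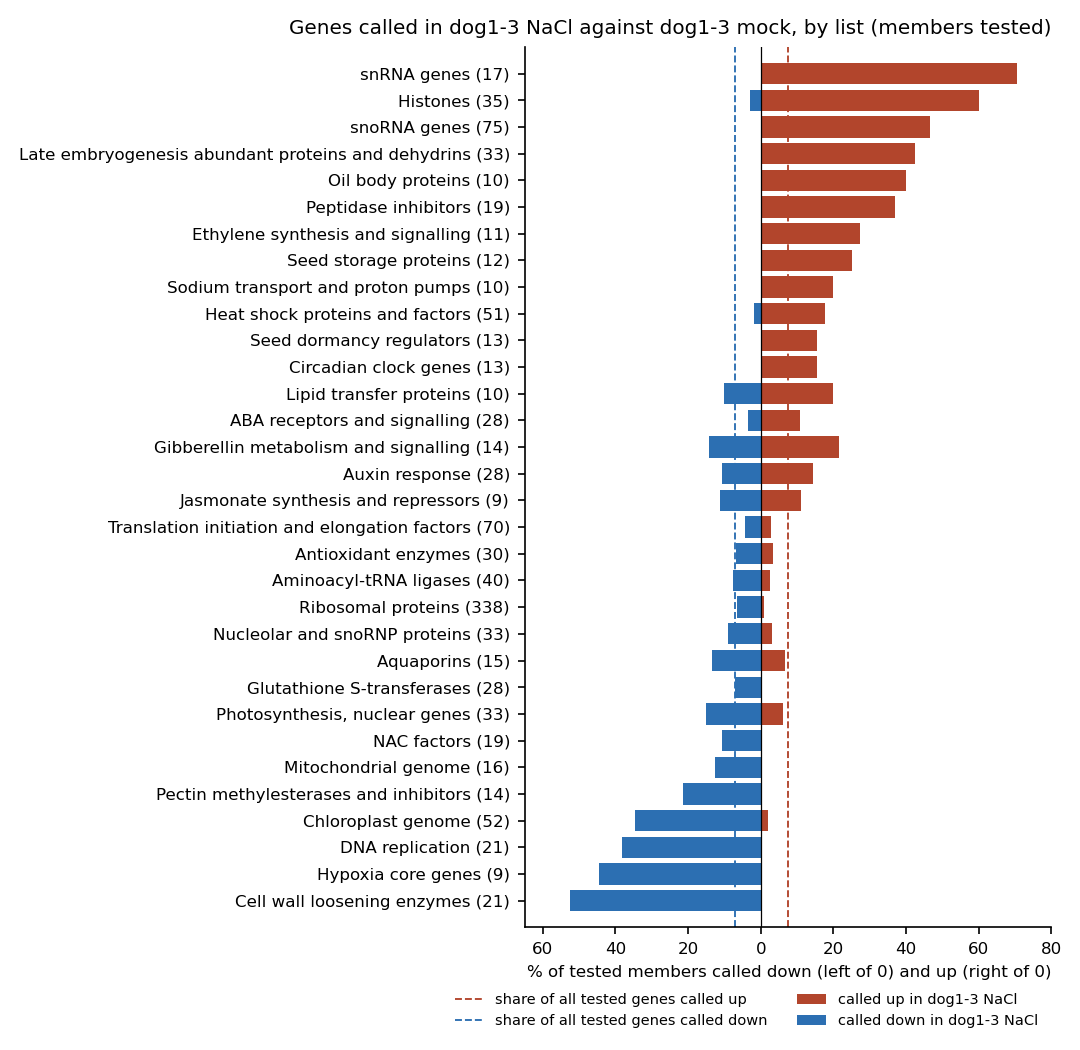
Share of the tested members of each gene list called up (right of 0) and called down (left of 0) in dog1-3 NaCl against dog1-3 mock, in % of tested members, with the number tested in parentheses. Dashed lines mark the shares over all tested genes, 7.53% up and 7.16% down. Lists with at least 9 tested members and 2 called are drawn; snRNA, histone, snoRNA and late embryogenesis abundant genes extend furthest to the right, and cell wall loosening, hypoxia, DNA replication and chloroplast genes furthest to the left.

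DOG1 itself (AT5G45830) was examined first. It had 17.8, 23.5, 17.2 and 17.3 CPM in the dog1-3 NaCl libraries, against 14.9, 19.0, 14.3 and 14.2 CPM in the dog1-3 mock libraries, from 22 to 51 counts in each. These values overlapped between the treatments, and the log2FC of 0.24 (standard error 0.22) did not pass the test (edgeR adjusted p = 0.451). In WT, DOG1 had 161, 124, 170 and 125 CPM with NaCl, against 80.5, 102, 75.8 and 63.1 CPM in mock. Every dog1-3 library lay below every WT library, and whether the counted ends lie beyond the T-DNA is not given in the sources used here. UBC21 (AT5G25760), a ubiquitin-conjugating enzyme gene commonly used as a reference in RT-qPCR, averaged 39.9 ± 3.16 CPM in NaCl and 46.9 ± 4.38 CPM in mock (SD, n = 4 each), and its log2FC of -0.23 (standard error 0.13) did not pass the test either (edgeR adjusted p = 0.197).

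Genes of the desiccation-tolerant embryo were among the upregulated genes of highest CPM. Late embryogenesis abundant (LEA) proteins, among them the dehydrins, are small hydrophilic proteins that accumulate late in seed maturation and protect membranes and proteins when water is lost. Of 57 annotated genes 33 were tested, of which 14 were upregulated and none was downregulated, with a median log2FC of 0.52 (all tested genes, -0.02). Their counts took 7.37% ± 0.347 of a library in dog1-3 NaCl and 5.28% ± 0.273 in dog1-3 mock (SD, n = 4 each). The NaCl libraries lay between 7.02 and 7.71% and the mock libraries between 4.99 and 5.61%. The dehydrin XERO1 had 1826, 1960, 1804 and 1692 CPM in the NaCl libraries, against 861, 876, 749 and 808 CPM in the mock libraries. The lowest NaCl library lay far above the highest mock library, a log2FC of 1.14 (standard error 0.083, edgeR adjusted p = 3.31e-13). M17, annotated as a glycine-rich LEA protein, had 6940, 7272, 5885 and 6025 CPM in NaCl and 2058, 2968, 2551 and 2578 CPM in mock, again with no overlap (log2FC 1.36, standard error 0.11, edgeR adjusted p = 5.01e-12). RAB18, an ABA-responsive dehydrin, had 16751, 20970, 21949 and 18224 CPM in NaCl, against 8252, 10603, 9461 and 12482 CPM in mock. Its mock libraries spread more widely, but none reached the lowest NaCl library (log2FC 0.93, standard error 0.15, edgeR adjusted p = 5.69e-06). EM6, an embryo protein of the early methionine-labelled group, had 7732, 10285, 9691 and 7199 CPM in NaCl, against 4601, 5520, 4267 and 3744 CPM in mock (log2FC 0.94, standard error 0.11, edgeR adjusted p = 3.71e-08). LEA18 had means of 3154 ± 311 CPM in NaCl and 1472 ± 81.9 CPM in mock (SD, n = 4 each) and a log2FC of 1.10. ERD14, a dehydrin first found as induced early by dehydration, was at the other end of abundance: 11 to 20 counts in each NaCl library against 0 to 4 in each mock library, a log2FC of 3.27 (standard error 0.47). Not every ABA- or cold-related marker followed. Of 9 tested dehydration and cold stress markers RAB18 alone was called, and RD29B averaged 588 ± 93.5 CPM in NaCl and 479 ± 45.4 CPM in mock (SD, n = 4 each) with overlapping libraries and a log2FC of 0.30, under the fold limit.

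The promoters of 3 of these genes are shown as examples that hold a short letter match to the ABA-responsive element (ABRE). The ABRE is the binding site of bZIP factors in ABA signalling, and such matches are frequent in the list. The ABRE was searched as ACGTGNC on both strands from 250 bases before to 50 bases after the gene start, and it overlaps the G-box CACGTG where both occur. It was present in 23 of 33 tested LEA and dehydrin promoters (69.7%), against 13.1% of all 12629 tested promoters. Of the 14 upregulated members 9 held it (64.3%), so its share was not higher among these than over the list. M17 and ERD14 were among the upregulated members that held none. The windows are RefSeq sequences of build TAIR10.1: EM6 at chr2:16780319-16780618 on the minus strand, XERO1 at chr3:18941675-18941974 on the plus strand and RAB18 at chr5:26519398-26519697 on the minus strand, each 5' to 3' along the gene, with ABRE matches in capitals (in EM6 2 matches on opposite strands overlap).
EM6: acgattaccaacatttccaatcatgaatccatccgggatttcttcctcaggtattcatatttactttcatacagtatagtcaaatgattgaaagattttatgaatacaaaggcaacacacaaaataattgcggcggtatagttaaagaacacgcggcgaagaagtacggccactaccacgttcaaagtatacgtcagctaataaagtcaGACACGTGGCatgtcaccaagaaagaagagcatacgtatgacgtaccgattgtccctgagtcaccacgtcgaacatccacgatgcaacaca
XERO1: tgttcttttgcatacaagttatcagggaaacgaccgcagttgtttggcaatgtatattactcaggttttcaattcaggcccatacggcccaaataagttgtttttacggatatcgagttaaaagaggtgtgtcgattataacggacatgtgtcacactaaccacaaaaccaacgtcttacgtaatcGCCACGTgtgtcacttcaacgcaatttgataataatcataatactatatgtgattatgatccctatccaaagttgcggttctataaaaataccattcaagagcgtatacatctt
RAB18: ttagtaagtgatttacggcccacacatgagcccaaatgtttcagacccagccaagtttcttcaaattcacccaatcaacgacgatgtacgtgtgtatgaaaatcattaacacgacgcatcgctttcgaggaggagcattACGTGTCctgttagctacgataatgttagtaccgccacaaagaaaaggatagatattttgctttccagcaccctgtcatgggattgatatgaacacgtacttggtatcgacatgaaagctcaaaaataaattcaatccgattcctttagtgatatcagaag

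Storage and oil body genes held upregulated and no downregulated members, where 7.53% of all tested genes were called up and 7.16% down. In lists this small, a lack of downregulated members is near that background and is not a result by itself. Seed storage proteins feed the seedling after germination. All 12 were tested, 3 were upregulated, and the median log2FC was 0.38. The vicilin-like PAP85 had 11461, 12293, 12668 and 10962 CPM in dog1-3 NaCl, against 6391, 7303, 6966 and 7495 CPM in dog1-3 mock (log2FC 0.75, standard error 0.10, edgeR adjusted p = 3.25e-07). The 2S albumin SESA5 averaged 8263 ± 1416 CPM in NaCl and 4747 ± 530 CPM in mock (SD, n = 4 each), a log2FC of 0.80. In both genes every NaCl library exceeded every mock library. The 12S globulin CRA1, in contrast, averaged 26927 ± 3531 CPM in NaCl and 22050 ± 1484 CPM in mock (SD, n = 4 each) and was not called (log2FC 0.29, edgeR adjusted p = 0.10). Of 10 tested oil body proteins, the oleosins and caleosins that coat lipid droplets, 4 were upregulated, among them OLEO4 with 4206, 5310, 4872 and 4818 CPM in NaCl, against 2462, 3026, 3229 and 3370 CPM in mock. Oil body genes took 3.61% ± 0.194 of counts in NaCl and 2.87% ± 0.230 in mock without overlap, and storage proteins 8.75% ± 0.874 in NaCl and 7.35% ± 0.329 in mock (SD, n = 4 each), where NaCl replicate 4, at 7.54%, lay within the mock range. Peptidase inhibitors, which keep stored protein from early breakdown, added 7 upregulated genes of 19 tested and no downregulated one. AT2G38870, of the potato inhibitor I family, had 143, 142, 165 and 133 CPM in NaCl, against 53.8, 64.5, 57.3 and 60.9 CPM in mock (log2FC 1.30, standard error 0.10, edgeR adjusted p = 2.51e-12), and the cystatins CYSA, CYS4 and CYSB rose with log2FC of 1.20, 0.86 and 0.61. By CPM the highest upregulated gene of all was AT5G35660, a glycine-rich protein of unstated function, at 22176 ± 2571 CPM in NaCl and 10130 ± 881 CPM in mock (SD, n = 4 each; log2FC 1.13). A second glycine-rich gene, AT2G05580, averaged 9572 ± 814 CPM in NaCl and 5484 ± 632 CPM in mock (SD, n = 4 each; log2FC 0.80). With such genes rising, the 20 genes of highest summed counts took 24.9% ± 0.937 of a library in NaCl and 20.2% ± 1.02 in mock (SD, n = 4 each; p = 0.0286 by the exact two-sided permutation test, the lowest value that 4 against 4 libraries can give).

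**Figure D2:**
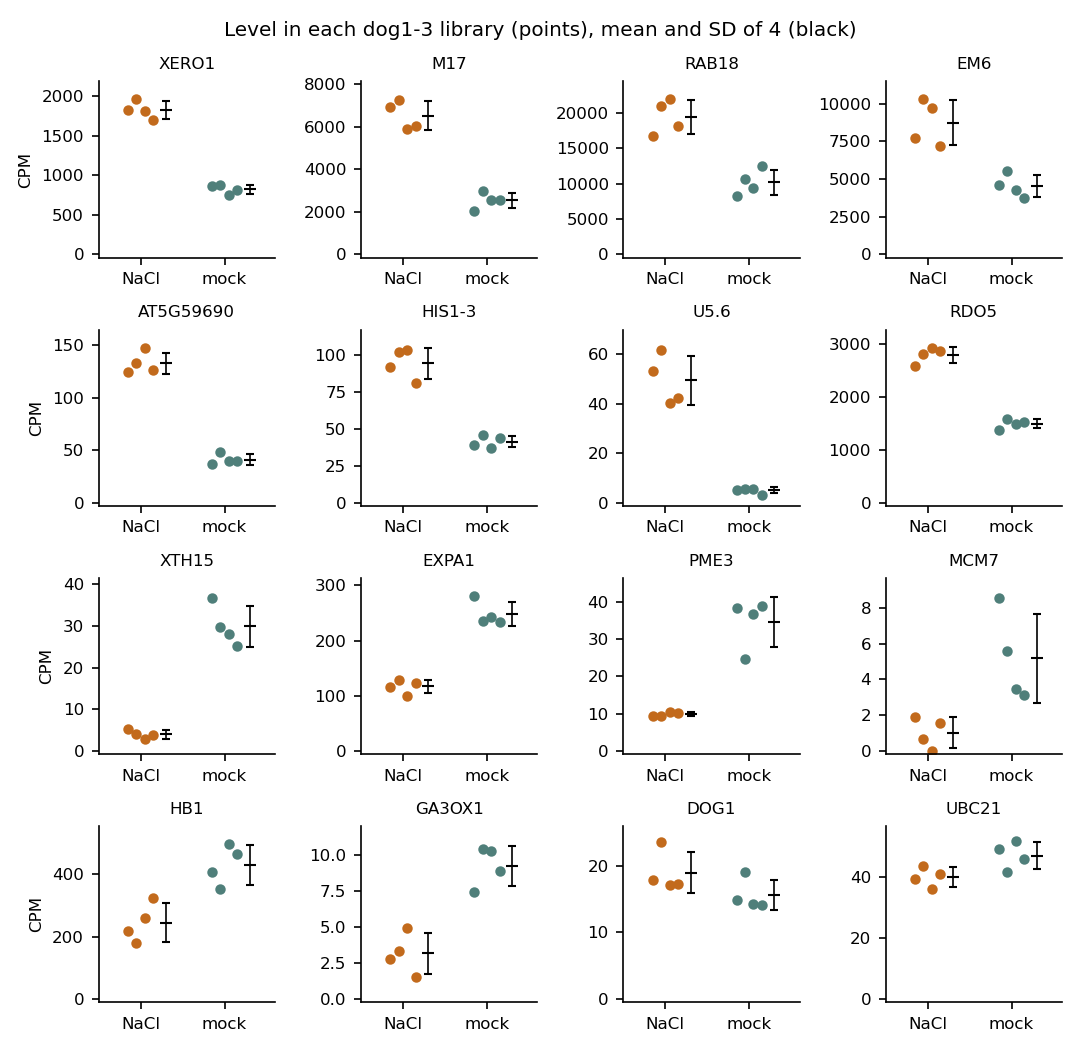
CPM of 16 genes in each dog1-3 library, NaCl (left) and mock (right) in each panel, with replicates 1 to 4 from left to right; black marks give the mean and SD of 4, and every vertical axis includes 0. The points do not overlap between treatments in any panel but those of DOG1 and UBC21.

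Histone genes were mostly upregulated. Histones package DNA into nucleosomes, and most of their genes are usually tied to DNA synthesis. Of 35 tested genes 21 were upregulated and 1 was downregulated, with 33 positive log2FC and a median of 0.68. AT5G59690 had 125, 133, 147 and 126 CPM in dog1-3 NaCl, against 36.7, 48.5, 40.1 and 39.4 CPM in dog1-3 mock. This gene showed the smallest p-value of the family and a gap of more than 2-fold between the groups (log2FC 1.67, standard error 0.13, edgeR adjusted p = 5.85e-13). The linker histone HIS1-3, known as drought-inducible, had 91.9, 102, 103 and 80.8 CPM in NaCl, against 38.9, 45.5, 37.2 and 44.1 CPM in mock (log2FC 1.18, standard error 0.11, edgeR adjusted p = 1.17e-10). HTB11, an H2B gene, had 135, 166, 148 and 125 CPM in NaCl, against 74.6, 70.1, 79.0 and 72.4 CPM in mock (log2FC 0.96), and AT3G53730 rose with a log2FC of 1.15. The downregulated member, AT5G19490, lay near the detection range at 3.01 ± 0.816 CPM in NaCl and 6.35 ± 1.36 CPM in mock (SD, n = 4 each; log2FC -1.05, edgeR adjusted p = 0.045). Scaled by library size alone, the list still had a positive median (0.51) with 11 members called up.

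Small RNA genes of the nucleus were called up and not down. Small nuclear RNAs (snRNAs) are the RNA cores of the spliceosome, and small nucleolar RNAs (snoRNAs) guide the modification of ribosomal RNA. Their mature forms mostly lack a poly(A) tail, while the reads here were primed with oligo(dT), so that the counts come from whatever part of these RNAs was primed. The mean count in the treatment where it was higher had a median of 11 for snRNA and 13 for snoRNA genes. This is near the filter's minimum count of 10, so members may have been tested only because they were high in 1 treatment. The effect of this on the shares called and the medians was not tested. Of 17 tested snRNA genes 12 were upregulated and none was downregulated (median log2FC 1.52), and of 75 snoRNA genes 35 were upregulated and none was downregulated (median 0.70). Together 47 were called up, against 34 with the dog1-3 libraries alone and 47 with no filter on low counts. U5.6 (AT1G04263), a U5 snRNA gene, had 53.0, 61.7, 40.4 and 42.3 CPM in dog1-3 NaCl, against 5.33, 5.60, 5.73 and 3.15 CPM in dog1-3 mock. The lowest NaCl library lay far above the highest mock library (log2FC 3.30, standard error 0.23, edgeR adjusted p = 8.73e-14), although parts of its sequence recur in the genome and its reads are therefore uncertain. The snoRNA AT3G21805 had 11.3, 15.4, 15.5 and 12.5 CPM in NaCl, against 1.60, 0.746, 1.72 and 2.10 CPM in mock, from 2 to 4 counts in each mock library (log2FC 3.17, standard error 0.35). snoRNA genes together took 0.127% ± 0.00874 of counts in NaCl and 0.0860% ± 0.00463 in mock, and snRNA genes 0.0191% ± 0.00274 in NaCl and 0.00759% ± 0.00123 in mock (SD, n = 4 each), both without overlap. Among other non-coding classes, 21 of 80 tested lncRNA genes rose and 6 fell, with a median log2FC of 0.44. Over all tested genes 7.53% were called up and 7.16% down, so the falling lncRNA genes were near the background. The lncRNA AT1G06123 rose to 12.1 ± 4.66 CPM in NaCl, against 1.30 ± 1.30 CPM in mock (SD, n = 4 each; log2FC 3.31).

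On the falling side, enzymes that loosen the cell wall held calls in 1 direction. Expansins and xyloglucan endotransglucosylase/hydrolases (XTHs) let the wall yield during embryo elongation and endosperm weakening. Of 21 tested genes 11 were downregulated and none was upregulated, with a median log2FC of -0.69. XTH15 had 5.16, 4.02, 2.77 and 3.92 CPM in dog1-3 NaCl, against 36.7, 29.8, 28.1 and 25.2 CPM in dog1-3 mock. All NaCl libraries were far below the mock libraries (log2FC -2.88, standard error 0.29, edgeR adjusted p = 7.28e-10). EXPA1, at higher CPM, had 117, 128, 100 and 122 CPM in NaCl, against 281, 236, 242 and 235 CPM in mock (log2FC -1.09, standard error 0.11, edgeR adjusted p = 6.01e-10). EXPA15 had 25.8, 11.4, 17.7 and 21.2 CPM in NaCl, against 59.6, 47.4, 57.8 and 48.8 CPM in mock (log2FC -1.44). XTH19 fell with a log2FC of -1.98 and EXPA2, at 0.933 ± 0.828 CPM in NaCl and 6.37 ± 5.51 CPM in mock (SD, n = 4 each), with -2.75, a call that was lost without mock replicate 1. Both XTH15 and EXPA2 are overlapped by a gene on the opposite strand. Pectin methylesterases, which stiffen or soften pectin by removing methyl groups, and their inhibitors added 3 downregulated genes of 14 tested and no upregulated one. The enzyme PME3 had 9.38, 9.39, 10.5 and 10.2 CPM in NaCl, against 38.3, 24.6, 36.6 and 38.8 CPM in mock (log2FC -1.78, standard error 0.20, edgeR adjusted p = 9.73e-09).

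Among genes of DNA replication, 8 of 21 tested were downregulated, at low counts, and none was upregulated (median log2FC -0.55). The summed CPM of the whole list was higher in dog1-3 NaCl (1204 to 1272 CPM) than in dog1-3 mock (1087 to 1201 CPM). Among the 8 were all 6 subunits of the MCM2-7 complex, the helicase that opens DNA at replication origins (its MCM2, MCM3, MCM4 and MCM6 were singled out after their values were seen). Summed over the 6 subunits, the dog1-3 NaCl libraries held 18, 6, 12 and 10 counts, against 61, 79, 42 and 43 counts in the dog1-3 mock libraries. MCM7 had 1.88, 0.671, 0 and 1.57 CPM in NaCl, against 8.52, 5.60, 3.44 and 3.15 CPM in mock (log2FC -2.27, standard error 0.55, edgeR adjusted p = 0.00157), and is overlapped on the opposite strand. MCM5 had 1.41, 1.34, 1.11 and 0.784 CPM in NaCl, against 4.79, 5.60, 4.58 and 4.20 CPM in mock (log2FC -1.98, standard error 0.49, edgeR adjusted p = 0.00193). For the other 4 subunits log2FC lay between -2.26 (MCM3) and -1.71 (MCM2), and MCM6 alone had overlapping libraries. The primase subunit gene EMB2813 (log2FC -2.56) and ORC4 of the origin recognition complex (log2FC -0.88) completed the set. The all-library fit carries these calls: with the 8 dog1-3 libraries alone 7 of the 8 genes did not pass the filter on low counts and 1 was called. Tubulins (10 tested) and cyclins (11 tested) had no member called, with medians of -0.25 and -0.18. The letters TTTCCCGC, a form of the site bound by E2F factors at S-phase genes, were searched on both strands. They were found in 5 of the 21 promoters (23.8%), against 0.744% of all tested promoters. The carriers included a gene that was not called, and MCM3, MCM4 and MCM7, all called, held no match. MCM5 is shown as the example, at chr2:3527451-3527750 on the minus strand (RefSeq, TAIR10.1), with the match in capitals.
MCM5: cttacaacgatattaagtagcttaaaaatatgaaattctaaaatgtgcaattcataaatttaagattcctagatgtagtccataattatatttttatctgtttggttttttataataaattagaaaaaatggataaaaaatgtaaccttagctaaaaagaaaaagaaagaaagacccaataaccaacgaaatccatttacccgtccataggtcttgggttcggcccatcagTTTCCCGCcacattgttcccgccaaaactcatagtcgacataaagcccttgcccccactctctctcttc

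Genes of protein synthesis had few calls. Ribosomal proteins are the largest list, with 338 tested genes, of which 22 were downregulated and 3 upregulated, close to the 7.16% background on the falling side, and the median log2FC was -0.11. Their summed share of counts was 8.09% ± 0.473 in dog1-3 NaCl and 10.0% ± 0.628 in dog1-3 mock (SD, n = 4 each), a difference of -1.95 percentage points without overlap between the libraries. On TMM-scaled library sizes the difference was -0.936 percentage points and the groups overlapped, with 88282 to 95362 CPM in NaCl and 95267 to 107842 CPM in mock. AT4G17390, an L15e protein, had 512, 479, 509 and 539 CPM in NaCl, against 832, 777, 802 and 876 CPM in mock (log2FC -0.69, standard error 0.076, edgeR adjusted p = 6.03e-09). The 5 genes of highest CPM called down included its paralog AT4G16720 (log2FC -0.61) and the L4 gene AT5G02870 (log2FC -0.67). Reads of such near-identical paralogs may have been shared out by the counting. The exceptions were 2 genes of L41, the smallest ribosomal protein, and the L27 gene AT2G16930 (log2FC 0.63). The L41 gene AT3G08520 had 406, 385, 375 and 368 CPM in NaCl, against 167, 163, 140 and 170 CPM in mock, a wide gap against its family (log2FC 1.26, standard error 0.081, edgeR adjusted p = 1.43e-14), and AT3G11120 rose with 0.59. Translation factors (70 tested, 2 up, 3 down), aminoacyl-tRNA ligases (40 tested, 1 up, 3 down) and nucleolar proteins (33 tested, 1 up, 3 down) had medians of -0.06, -0.09 and -0.09. Lysyl-tRNA ligase ATKRS-1 fell to 57.2 ± 7.75 CPM in NaCl, against 95.0 ± 14.3 CPM in mock (SD, n = 4 each; log2FC -0.74), and the NOP56-like AT3G05060, of the particle that holds guide snoRNAs, fell to 186 ± 19.2 CPM, against 318 ± 40.2 CPM (SD, n = 4 each; log2FC -0.77). The nucleolin AT1G47970 was the riser among nucleolar genes (log2FC 0.68).

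Genes induced by low oxygen were all negative. Of 9 tested hypoxia core genes 4 were downregulated, none was upregulated and all 9 had a negative log2FC (median -0.67). HB1, a hemoglobin that scavenges nitric oxide when oxygen is short, had 217, 178, 258 and 324 CPM in dog1-3 NaCl, against 407, 350, 495 and 465 CPM in dog1-3 mock. The highest NaCl library came near the lowest mock library without reaching it (log2FC -0.82, standard error 0.13, edgeR adjusted p = 5.30e-06). PCO1, an oxygen-sensing cysteine oxidase, had 85.8, 85.8, 98.0 and 114 CPM in NaCl, against 145, 162, 209 and 175 CPM in mock (log2FC -0.86, standard error 0.14, edgeR adjusted p = 7.41e-06). Its relative PCO2 fell with -0.91 and the ethylene response factor ERF73 with -0.87.

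Chloroplast loci held more downregulated members than the background, and their counts differed within the mock group. Of 52 tested chloroplast loci 18 were downregulated and 1 was upregulated (ATCG00340, log2FC 0.78), with a median of -0.49. The chloroplast share of counts was 0.318, 0.315, 0.280 and 0.336% in dog1-3 NaCl, against 0.374, 0.491, 0.532 and 0.329% in dog1-3 mock (p = 0.0571 by the exact two-sided permutation test). Mock replicates 2 and 3 were the highest, and mock replicate 4 lay within the NaCl range. The part of these 2 libraries in the result was not tested beyond leaving them out. Without these 2 libraries, an alternative chosen after seeing the data, 1 chloroplast locus was called down, while over all genes 967 were called up and 792 down. The mitochondrial share was 0.322, 0.269, 0.248 and 0.268% in NaCl, against 0.419, 0.805, 0.711 and 0.322% in mock (p = 0.0571 by the exact two-sided permutation test), and the same 2 mock libraries were the highest. ATMG00020, the mitochondrial locus of highest CPM, had 3146, 2597, 2413 and 2468 CPM in NaCl, against 3721, 7529, 6429 and 2978 CPM in mock (log2FC -0.96, edgeR adjusted p = 0.00039), with overlapping groups. The nuclear lncRNA AT3G06355 showed the same 2 high mock libraries, with 472, 489, 466 and 260 CPM in NaCl and 630, 1345, 1613 and 611 CPM in mock (log2FC -1.31). Nuclear genes of photosynthesis went both ways (33 tested, 2 up, 5 down): the Rubisco small subunit RBCS1A rose to 888 ± 82.3 CPM in NaCl, against 514 ± 33.9 CPM in mock, while the light-harvesting gene Lhca5 fell to 15.0 ± 1.35 CPM, against 25.1 ± 5.72 CPM (SD, n = 4 each; log2FC 0.79 and -0.72).

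**Figure D3:**
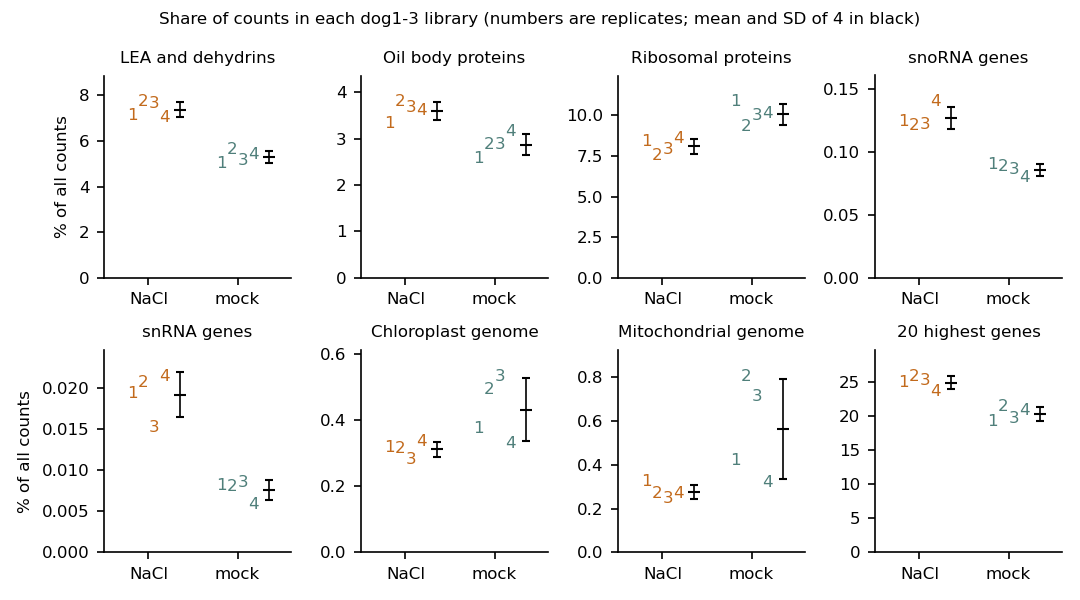
Share of all counts, in %, taken by 8 groups of genes in each dog1-3 library, NaCl (left) and mock (right); numerals give the replicate and black marks the mean and SD of 4. LEA and dehydrin genes, oil body proteins, snoRNA, snRNA and the 20 highest genes lie higher in all 4 NaCl libraries and ribosomal proteins lower, while for the organelle genomes mock replicates 2 and 3 lie highest.

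In each hormone list few genes or none were called, in both directions for gibberellin, ABA signalling, auxin and jasmonate genes. Over all tested genes, 7.53% were called up and 7.16% down, and the small lists below are to be read against these shares. Gibberellin genes (14 tested, 3 up, 2 down) had 2 synthesis enzymes called down. GA3OX1, which makes the active hormone, had 2.81, 3.35, 4.98 and 1.57 CPM in dog1-3 NaCl, against 7.46, 10.4, 10.3 and 8.92 CPM in dog1-3 mock, without overlap (log2FC -1.50, standard error 0.32, edgeR adjusted p = 0.000402). GA20OX1, one step earlier, fell with -0.73. The inactivating enzyme GA2OX2 rose with 0.64, and the receptor GID1A had 140, 133, 136 and 136 CPM in NaCl, against 87.3, 92.5, 82.4 and 88.2 CPM in mock (log2FC 0.63). In ABA signalling (28 tested, 3 up, 1 down) the phosphatases ABI2 and HAB1, which switch the pathway off, rose with log2FC of 0.85 and 0.68, HAB1 with overlapping libraries. Of the receptors, PYL4 fell to 6.57, 4.02, 6.64 and 3.92 CPM in NaCl, against 18.1, 8.21, 11.5 and 14.7 CPM in mock (log2FC -1.20, edgeR adjusted p = 0.00124), and PYL7 passed the fold limit narrowly (log2FC 0.59, edgeR adjusted p = 0.044). None of 8 tested genes of ABA synthesis and breakdown was called. The zeaxanthin epoxidase ABA1 had a log2FC of 0.42, under the fold limit. Ethylene genes (11 tested, 3 up, 0 down) included the receptor EIN4 (log2FC 1.46), the membrane signal carrier EIN2 (0.62) and the transcription factor ERF1 (0.81). Auxin genes (28 tested, 4 up, 3 down) were called in both directions. The response regulators ARF2 (0.87) and IAA13 (0.70) rose, while the efflux carrier PIN3 fell with -0.99 and the uptake carrier LAX2 with -3.11, from 0 to 2 counts in each NaCl library and 4 to 22 in each mock library. In cytokinin signalling the response regulator ARR4 alone of 10 was called (log2FC 1.23), and in the jasmonate list (9 tested) the synthesis enzyme AOS rose with 0.90 and the repressor JAZ1 fell with -0.74. The auxin median, 0.16, turned to -0.01 under scaling by library size alone.

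Among 13 tested seed dormancy regulators 2 were upregulated and none was downregulated, where 7.53% of all tested genes were called up and 7.16% down. Their median log2FC was 0.16, and -0.01 under scaling by library size alone. RDO5, a phosphatase-like protein whose loss reduces dormancy, had 2583, 2817, 2935 and 2860 CPM in dog1-3 NaCl, against 1381, 1588, 1493 and 1527 CPM in dog1-3 mock. Every NaCl library lay over 1.5-fold above every mock library (log2FC 0.90, standard error 0.084, edgeR adjusted p = 1.42e-10). AT4G18650, of the DOG1-like family, rose to 212 ± 11.2 CPM in NaCl, against 141 ± 13.2 CPM in mock (SD, n = 4 each; log2FC 0.59). The phytochrome PHYA, the photoreceptor of very low light, had 574, 591, 580 and 545 CPM in NaCl, against 332, 343, 294 and 327 CPM in mock (log2FC 0.82, standard error 0.074, edgeR adjusted p = 6.58e-11), the single call among 12 light signalling genes. The germination repressor SOM averaged 1207 ± 64.2 CPM in NaCl and 1035 ± 81.5 CPM in mock (SD, n = 4 each), under the fold limit. Of 13 clock genes, ZTL (log2FC 0.66) and PRR3 (log2FC 0.69, libraries overlapping) were upregulated.

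Ion and water transport held few calls, where 7.53% of all tested genes were called up and 7.16% down. Aquaporins had 1 up and 2 down of 15 tested, and the raffinose list 1 up and 1 down of 6. The calls below therefore describe single genes. The vacuolar proton pump AVP1, which energizes sodium storage in the vacuole, had 658, 744, 705 and 663 CPM in dog1-3 NaCl, against 389, 381, 401 and 406 CPM in dog1-3 mock (log2FC 0.81, standard error 0.076, edgeR adjusted p = 1.67e-10), with an overlapping gene on the opposite strand. SOS1, the plasma membrane exchanger that expels sodium, had 13.6, 18.1, 14.9 and 14.9 CPM in NaCl, against 8.52, 9.33, 10.3 and 8.40 CPM in mock (log2FC 0.74, standard error 0.21, edgeR adjusted p = 0.00625). These were the only calls among 10 tested genes of sodium transport and proton pumps. Aquaporins, the water channels, were divided: PIP2A had 23.0, 20.1, 27.7 and 28.2 CPM in NaCl and 9.05, 7.09, 8.59 and 9.97 CPM in mock (log2FC 1.52), while PIP3 had 35.7, 27.5, 28.2 and 31.4 CPM in NaCl and 79.3, 64.2, 61.8 and 65.6 CPM in mock (log2FC -1.13), and SIP1;2 fell with -0.70. In the raffinose list, stachyose synthase STS rose to 91.2 ± 10.2 CPM, against 42.6 ± 7.10 CPM (log2FC 1.10), and DIN10 fell to 5.63 ± 3.00 CPM, against 16.5 ± 5.22 CPM (SD, n = 4 each; log2FC -1.54). Heat shock genes (51 tested, 9 up, 1 down; median 0.05, and -0.13 under library size alone) were led by the small chaperone HSP17.6A, with 180, 162, 218 and 238 CPM in NaCl and 70.8, 59.7, 80.7 and 88.2 CPM in mock (log2FC 1.42, standard error 0.14, edgeR adjusted p = 9.34e-10). The chloroplast chaperone cpHsc70-2 was the one that fell (log2FC -0.68). Antioxidant enzymes (30 tested, 1 up, 2 down), glutathione S-transferases (28 tested, 0 up, 2 down) and NAC factors (19 tested, 0 up, 2 down) were near or below the background shares. Enzymes of oil breakdown and gluconeogenesis had 1 call down of 20 tested (PKT4, log2FC -0.60), with isocitrate lyase ICL at 7323 ± 306 CPM in NaCl and 5284 ± 617 CPM in mock (SD, n = 4 each; log2FC 0.47, under the fold limit). Lipid transfer proteins had 2 up and 1 down of 10, against 7.53% up and 7.16% down over all tested genes. No member was called among fatty acid synthesis genes (12 tested), WRKY factors (18 tested) and defensins (6 tested), whose most abundant member, LCR67 (AT1G75830), had a log2FC of 0.56, under the fold limit.

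Several of the largest single changes belonged to genes outside these groups. AUR2, an Aurora kinase of cell division, had 121, 147, 101 and 111 CPM in dog1-3 NaCl, against 14.9, 16.4, 15.5 and 21.0 CPM in dog1-3 mock (log2FC 2.82, standard error 0.14, edgeR adjusted p = 1.16e-17). It is overlapped on the opposite strand by the oleosin AT2G25890, at 2270 ± 141 CPM in NaCl and 1680 ± 90.7 CPM in mock (SD, n = 4 each), so its reads are uncertain. AT5G49640, of unknown function, had 174, 203, 231 and 199 CPM in NaCl, against 42.6, 16.4, 21.8 and 24.1 CPM in mock (log2FC 2.97), and is likewise overlapped, by AT5G49645 (715 ± 37.6 CPM in NaCl and 554 ± 60.6 CPM in mock, SD, n = 4 each). AT1G14453 had the largest fitted increase of all called genes (log2FC 3.84), at 5.81 ± 1.90 CPM in NaCl and 0.330 ± 0.387 CPM in mock (SD, n = 4 each). It rests on 40 counts in the NaCl libraries and 3 in the mock libraries, a ratio of 16.3 with a 95% interval of 5.20 to 82.6 that covers counting error only. The non-coding AT1G70185, AT1G08633 and AT1G06227 rose with 2.79, 2.49 and 2.45. Among called genes with non-overlapping libraries and a mean of at least 10 counts in mock, the selenium-binding protein SBP3 had the lowest log2FC, with 0.938, 2.01, 1.66 and 0 CPM in NaCl, against 13.8, 8.95, 10.9 and 15.2 CPM in mock (log2FC -3.27, standard error 0.44, edgeR adjusted p = 3.26e-07). Under the same 2 conditions the next were, besides XTH15, EXPA2, LAX2 and MCM7, the asparaginase ASPGB1 (-2.40), the arginine methyltransferase PRMT1A (-2.32), the cytochrome P450 CYP71B2 (-2.28), the laccase LAC8 (-2.21) and the F-box gene AT2G32560 (-2.20). Each of these 5 averaged at most 10 CPM in mock.

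Over the whole set of calls, 955 upregulated and 889 downregulated genes had a promoter sequence. The ABRE was found in 12.8% of upregulated promoters (95% Wilson interval 10.8 to 15.0%) and 10.5% of downregulated promoters (8.62 to 12.6%), against 13.1% of all tested promoters. Site II (TGGGCC), frequent before genes of protein synthesis, was found in 17.5% of upregulated promoters (15.2 to 20.0%) and 24.2% of downregulated promoters (21.5 to 27.1%), against 23.2% of all. The telo box (AAACCCTA) was found in 4.40% of upregulated promoters (3.27 to 5.89%) and 8.66% of downregulated promoters (6.99 to 10.7%), against 6.69% of all, and in 34.3% of the 338 ribosomal protein promoters. The G-box (CACGTG) was found in 11.4% of upregulated promoters (9.55 to 13.6%) and in 80 of 889 downregulated promoters (7.29 to 11.1%), against 10.1% of all. For the RY element of seed genes (CATGCA), the DRE (GCCGAC) and the evening element (AAAATATCT), shares were 9.11, 4.61 and 4.08% in upregulated promoters and 7.99, 3.04 and 2.81% in downregulated promoters, against 7.32, 4.12 and 2.98% in all. The E2F site (TTTCCCGC) was found in 0.628% of upregulated promoters (0.288 to 1.36%) and 1.01% of downregulated promoters (0.534 to 1.91%), against 0.744% of all. Both strands were searched in every case, and a letter match is not a bound site.

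In WT the same fit called 1201 genes up (9.46%) and 898 down (7.07%) in WT. Of the upregulated genes, 633 were shared, which is 66.2% of the dog1-3 and 52.7% of the WT set, and of the downregulated genes 462, which is 50.8% of the dog1-3 and 51.4% of the WT set. The 323 genes called up in dog1-3 alone had the same sign in WT in 303 cases, and 426 of the 447 called down in dog1-3 alone did too. Being called in a single genotype does not show a difference between them. The test of that difference, the salt-by-genotype interaction, passed an adjusted p of 0.05 for 1 of all tested genes (0.00788%). An unadjusted interaction p under 0.05 was seen for 107 upregulated and 107 downregulated dog1-3 genes. The dog1-3 libraries that selected these genes also enter the interaction, so these counts do not show a difference between the genotypes. Median log2FC of the dog1-3 calls were 0.80 in dog1-3 and 0.76 in WT for upregulated genes, and -0.82 and -0.60 for downregulated genes, with these genes selected in dog1-3. By list, histones had 21 up and 1 down in dog1-3 and 18 up and 2 down in WT, LEA and dehydrin genes 14 and 19 up, cell wall loosening enzymes 11 and 10 down, DNA replication 8 and 10 down and snRNA genes 12 and 16 up. Chloroplast loci were the exception in counts, with 1 up and 18 down in dog1-3 and 6 up and 4 down in WT (medians -0.49 and -0.06), and this difference between the genotypes was not tested for the list. Hypoxia core genes had 4 down in dog1-3 and 2 down in WT, with medians of -0.67 and -0.25. The gene past the interaction threshold was AT1G45160, a protein kinase, with 2.35, 0, 1.11 and 0.784 CPM in dog1-3 NaCl and 4.26, 4.85, 6.87 and 4.20 CPM in dog1-3 mock, at 0 to 13 counts in each library (log2FC -2.02 in dog1-3 and 0.53 in WT). It did not pass with the replicate number as a block, nor without any 1 of dog1-3 NaCl replicates 2, 3 and 4 and dog1-3 mock replicates 1, 2 and 3. The aldehyde oxidase AO1, with log2FC of 0.82 in dog1-3 and 1.35 in WT, and AT1G64795, with 0.66 in dog1-3 and -0.73 in WT, were among the next smallest interaction p-values and did not pass. The difference for DOG1 (log2FC 0.24 in dog1-3 and 0.85 in WT) rests on a disrupted gene and did not pass either.

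**Figure D4:**
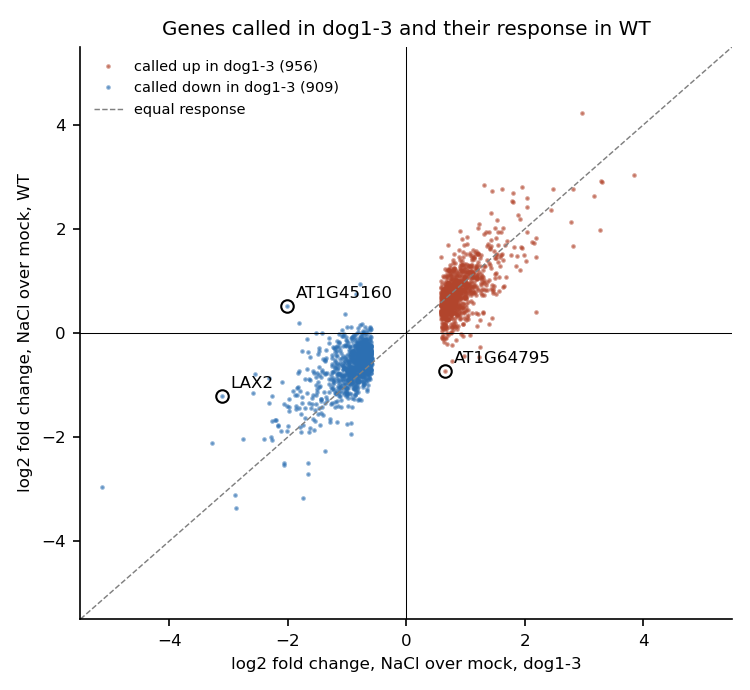
Salt response (log2FC, NaCl over mock) in dog1-3 (horizontal axis) and in WT (vertical axis) of the 956 genes called up and the 909 called down in dog1-3; each point is a gene and the dashed line marks an equal response. Nearly all points fall in the quadrants of equal sign; AT1G45160, AT1G64795 and LAX2 are circled.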

How the data were processed

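Per the labels and the study's methods, RNA of seeds (4 biological replicates per group) was reverse transcribed with barcoded oligo(dT) primers and sequenced from the 3' end. The authors deposited 1 table of raw counts per locus for each library, with no normalization. The submitters' processing notes name STAR 2.7.8a, DESeq2 and the genome build TAIR10. The counter, the use of molecular identifiers and of strand, and the annotation version are not given in the sources used here.

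Groups and replicate numbers came from the labels. Counts of the 16 libraries were fitted in 1 edgeR model (4.0.16, R 4.3.3) with 4 group means, TMM scaling and filterByExpr at a minimum count of 10, and contrasts were tested with the quasi-likelihood F test and Benjamini-Hochberg adjustment over the 12697 tested loci. Genes were called at an adjusted p under 0.05 and more than 1.5-fold. Standard errors are the log2FC divided by the square root of F. The shares of counts of the 20 highest genes and of the organelle genomes were compared by exact permutation tests, two-sided (SciPy 1.17.1). The p-values test differences against the spread between these libraries. The interval of the AT1G14453 ratio covers counting error only, and the Wilson intervals of promoter shares treat genes as independent draws. No replicate pair agreed within sampling noise (chi-square per degree of freedom 1.60 to 2.81). The fits were tested on simulated data. Alternatives were DESeq2 (1.42.0), other scalings, filters and fold rules, a replicate block, the dog1-3 libraries alone and leaving out libraries.

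Gene names came from the RefSeq annotation of TAIR10.1, which matched 37051 of 37336 loci. The other loci, of the organelle genomes, are given by their identifier. Promoters ran from 250 bases before to 50 after the annotated start (12629 of 12697 tested genes). Gene lists were built from locus tags, product names or symbols. The genes and lists described were chosen with earlier results of these data known, and list members whose product name did not match the list's meaning were removed after values were seen. Gene lists were described by counts and medians, with no test. The genes named are DOG1 and UBC21, the 10 largest increases and 10 largest decreases among called genes with non-overlapping libraries and a mean of at least 10 counts in the higher group, the 5 called genes of highest CPM in each direction, the 5 smallest interaction p-values, and up to 4 called members of each list by p (2 of highest CPM where fewer than 2 were called), with members called against their list's majority. AT2G25890, AT5G49645, MCM2, MCM3, MCM4 and MCM6 were added after their values were seen. 1 gene that the rule names is not reported here.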

Additional observations from a re-analysis of the deposited data

Results flagged for a closer look

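Within the groups of 4 dog1-3 libraries, 118 sets of values given by library were examined for a single library far from the other 3 (Dixon's test at its 95% critical value), which chance gives in about 1 of 20 sets, and 7 were found. DOG1 was highest in replicate 2 of both treatments, at 23.5 CPM in NaCl (others 17.2 to 17.8) and 19.0 CPM in mock (others 14.2 to 14.9). In mock, LEA18 was low in replicate 3 at 1351 CPM (others 1499 to 1529), U5.6 was low in replicate 4 at 3.15 CPM (others 5.33 to 5.73), EXPA1 was high in replicate 1 at 281 CPM (others 235 to 242) and PME3 was low in replicate 2 at 24.6 CPM (others 36.6 to 38.8). AT3G06355 was low in NaCl replicate 4 at 260 CPM (others 466 to 489). AT1G45160, a gene of low counts, passed the test of a different salt response in the genotypes, by -2.55 on the log2 scale (dog1-3 minus WT, edgeR interaction, adjusted p = 0.0409). It did not pass with the replicate block. Nor did it pass when any 1 of NaCl replicates 2, 3 and 4 and mock replicates 1, 2 and 3 of dog1-3 was left out.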

How the results depend on the processing

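Calls in dog1-3 kept within 1.5 times of 956 up and 909 down with DESeq2 (860 and 720), RLE size factors (971 and 888), no filter (1000 and 1019), 10 counts in every library of a group (936 and 909), the dog1-3 libraries alone (882 and 836), without the 20 highest genes (976 and 866), and without any 1 dog1-3 library (891 to 1005 up, 777 to 913 down). Testing against the fold limit itself (glmTreat) left 278 calls, 193 up and 85 down, with 147 and 58 shared with WT. Adjusted p without a fold limit gave 3662 calls, 1943 up and 1719 down, with 1510 and 1208 shared with WT. Library size alone gave 485 up and 1751 down, with 359 and 904 shared, and medians of the antioxidant, auxin, clock, dehydration and cold, glyoxylate, heat shock, NAC, raffinose, dormancy and sodium transport lists turned negative. It also turned ABA4 (log2FC -0.0705, with TMM 0.10) and CYCT1;4 (-0.0687, with TMM 0.11), neither called. ABA4 ranged from -0.0118 to 0.1792 on leaving out 1 library.

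With glmTreat, calls were 6 of 11 down for cell wall loosening, 1 of 18 for chloroplast, 3 of 8 for DNA replication and 0 of 4 for hypoxia genes, and 5 of 21 up for histones, 7 of 14 for LEA and dehydrin and 21 of 47 for snRNA and snoRNA genes. Histones had 11 up under library size alone, LEA and dehydrin genes 24 up without a fold limit, DNA replication genes 1 down with dog1-3 libraries alone, and chloroplast loci 1 down without mock replicates 2 and 3 (chosen after seeing the data). Leaving out 1 library gave 9 to 12 (cell wall), 13 to 23 (chloroplast), 8 to 10 (replication) and 3 to 5 (hypoxia) down and 19 to 24 (histones), 13 to 16 (LEA and dehydrin) and 39 to 45 (snRNA and snoRNA) up.

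The interaction passed for 13 of the called and 21 of all genes with no filter. Without any 1 dog1-3 library it passed for 0 to 1 of the called and 0 to 3 of all genes. Replicate numbers mark no stated pairing, and deviations of same-numbered libraries correlated at 0.00298 to 0.0495. With the replicate block, 956 genes were called up and 914 down, and the interaction passed for 0 genes (1 without the block). On TMM-scaled library sizes, storage proteins differed by 2.57 percentage points (1.40 on raw sizes) and ribosomal proteins by -0.936 (-1.95 on raw sizes). Of the values of named genes over the alternatives, 136 were no longer past the threshold and 7 newly past it, PYL7 most often (11), followed by AT5G19490, PKT4 and SESA4 (7 each). Among genes named in the text, leaving out 1 library ended the call of PYL7 (all but NaCl replicate 3), AT5G19490 (all but both replicates 2), PKT4 (NaCl 1, 2 or 4, mock 1 or 3), PRR3 (NaCl 1 or 4, mock 1 or 4), AT3G11120 (NaCl 1 or 4, mock 2), PIN3 (NaCl 3 or 4, mock 2), HAB1 (NaCl 3, mock 4), AT2G16930 (NaCl 1, mock 3), AT4G16720 (mock 1 or 4), AT4G18650 (NaCl 2, mock 1), CYSB (NaCl 2, mock 3), ERF1 (NaCl 2, mock 2), AOS (NaCl 4), EIN2 (NaCl 2), ERF73 (NaCl 1), GA20OX1 and cpHsc70-2 (NaCl 3), EXPA2, GA2OX2, Lhca5 and MCM4 (mock 1) and AT1G64795 (mock 3). Causes were not tested. Depth limits the low genes: DNA replication, snRNA and snoRNA calls rest on few counts per library.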
